A study of Mus musculus with 6 samples.

Results

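The genes that lie around Amhr2 on mouse chromosome 15 were examined in ovarian granulosa cells of Foxo1/Foxo3 double knockout mice, whose Cre recombinase is expressed from the Amhr2 locus. A list of 34 genes was taken, from Krt8 on one side to Ppp1r1a on the other, with the Hoxc cluster left out. Members were the probe sets whose single gene symbol in the platform annotation is on the list, with the probe set of highest mean kept for each gene. This gave 33 measured members of 18193 genes on the arrays. Atp5mc2 carries the symbol Atp5g2 in the annotation and was matched through RefSeq synonyms, and Soat2 was not analysed here because no probe set had it as a single symbol. In RefSeq gene order the stretch holds 49 protein-coding genes, of which 18 lie up to Krt8 and 30 up to Ppp1r1a, counted from Amhr2.

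RNA of granulosa cells, which nurse the oocyte within the follicle, was measured on 6 Affymetrix arrays in 3 groups of 2. The first group was the knockout at day 25 of age, labelled Foxo1 f/-, Foxo3 f/- and Amhr2-cre and called dKO here. The second was the same genotype at the age of 2 months, and the third was wild type at day 25, for which the labels list no Cre. All groups shared a mixed FVB and C57BL/6 background, and no wild-type cells of 2 months were used here. The labels do not say whether replicates were separate animals or pools, so p-values measure the spread between these samples only.

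AMH, the anti-Müllerian hormone of growing follicles, binds the type II receptor AMHR2 on granulosa cells. The receptor then works with type I receptors of the BMP family and SMAD proteins, which switch genes such as those of the ID family. Because Amhr2 is active in granulosa cells, its locus is used to drive Cre there, and mice with such an allele also carry the chromosome around it. The question was whether the neighbours of Amhr2 differ in arrays from mice with the Cre allele. The Cre allele, any strain alleles linked to it and the loss of the Foxo genes come together in every dKO sample, so their effects cannot be told apart.

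Arrays had median intensities of 73 or 74. The array of dKO at 2 months replicate 1 stood apart, with a correlation of at most 0.978 with any other array, where the other 5 arrays reached 0.99 to 0.992. Foxo1 on its brightest probe set was 904 and 2291 in dKO at day 25 and 126 and 343 at 2 months, against 10319 and 7666 in wild type, while Foxo3 was 2539 and 3279, 2484 and 1872, against 1632 and 1342. Foxo3 signal was thus not lower in the dKO. On every Foxo3 probe set all dKO arrays lay above both wild-type arrays, by 0.96 ± 0.22 on the log2 scale at day 25 on the brightest (adjusted p = 0.485 in limma). Where the Foxo3 probes lie relative to the deleted part was not examined here. The summed intensity of 14 granulosa markers was 119305 and 105752 in dKO at day 25 and 113897 and 102956 at 2 months, against 97220 and 105588 in wild type.

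Amhr2 itself had a lower signal in the dKO at day 25. Its brightest probe set gave 9102 and 8943 in dKO at day 25, 12185 and 9436 in dKO at 2 months, and 11809 and 12482 in wild type. Both day 25 dKO arrays lay below both wild-type arrays, and at 2 months replicate 1 lay within the wild-type range while replicate 2 lay near the day 25 dKO arrays. The log2 difference at day 25 was -0.43 ± 0.15 (SE), a 1.35-fold lower level, with adjusted p = 0.584 in limma. A difference of this size in a tissue sample can be fewer cells of a type or less RNA per cell, which cannot be told apart here. The Cre is expressed from this same locus. Where the Amhr2 probe sets lie relative to the Cre, and whether the Cre allele still yields Amhr2 RNA, was not examined here. The 2-month dKO arrays gave -0.18 ± 0.15 against wild type on the log2 scale (adjusted p = 0.622), or -0.36 without replicate 1 of that group and 0.01 without replicate 2.

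The other Amhr2 probe sets ran in the same direction. One gave 7029 and 6828 in dKO at day 25 and 9041 and 7195 at 2 months, against 9558 and 10140 in wild type, a log2 difference of -0.51 ± 0.14 at day 25 (adjusted p = 0.539). The third gave 1519 and 1596 in dKO at day 25 and 2246 and 1699 at 2 months, against 2453 and 2834 in wild type, a log2 difference of -0.76 ± 0.17 (adjusted p = 0.485). On these further probe sets all 4 dKO arrays lay below both wild-type arrays. The third is the only Amhr2 probe set that does not end in _x_at. It gave -0.43 ± 0.17 for the 2-month dKO arrays against wild type (adjusted p = 0.387 in limma). Of 14 granulosa markers on the same arrays, 9 had higher means in dKO at day 25 and 5 had lower ones. Their median log2 difference was 0.07, and 0 of them had an unadjusted p under 0.05 in limma, against 8.31% of all genes. The part of granulosa cell number in the Amhr2 values was not tested.

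The sequence before the Amhr2 start is shown because it belongs to the targeted gene and lies where the Cre allele is read from. It was taken from RefSeq on GRCm38.p6, strand +, at chr15:102445117-102445366, and ends 1 base before the start site. The sequence before the first listed start of Rarg, the member with the smallest p, is given beside it from strand - at chr15:102257523-102257772. Capitals mark every match, overlapping ones included, of 3 motifs searched on both strands: CAAGGTCA, a site of the nuclear receptor NR5A1, GTAAACA, a site of FOXO factors, and GGGCGG, the GC box bound by SP1.
Amhr2: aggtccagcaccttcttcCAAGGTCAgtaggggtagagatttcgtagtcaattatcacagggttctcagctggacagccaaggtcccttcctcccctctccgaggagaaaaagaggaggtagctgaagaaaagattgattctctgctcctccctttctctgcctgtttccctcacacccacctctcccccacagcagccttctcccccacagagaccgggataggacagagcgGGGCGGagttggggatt
Rarg: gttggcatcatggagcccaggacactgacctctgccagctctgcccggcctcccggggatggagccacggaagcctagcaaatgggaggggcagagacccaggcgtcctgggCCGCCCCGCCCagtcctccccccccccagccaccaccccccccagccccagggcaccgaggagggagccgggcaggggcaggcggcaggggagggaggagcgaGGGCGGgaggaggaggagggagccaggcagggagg
The Amhr2 window held the NR5A1 letters 232 bases and the GC box 17 bases before the start, and these do not overlap, while the Rarg window held 2 reverse GC boxes (CCGCCC) that share 1 base and a forward one. Of 33 members, 28 had a promoter entry, with 35 windows of 250 bases among them. The NR5A1 letters were in 1 of these windows, that of Amhr2, and in 1.33% of all 32851 windows. The FOXO letters were in 0 of the 35 windows and in 3.17% of all windows, and the GC box was in 23 of the 35 and in 32.7% of all. A match describes the letters only.

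**Figure D1:**
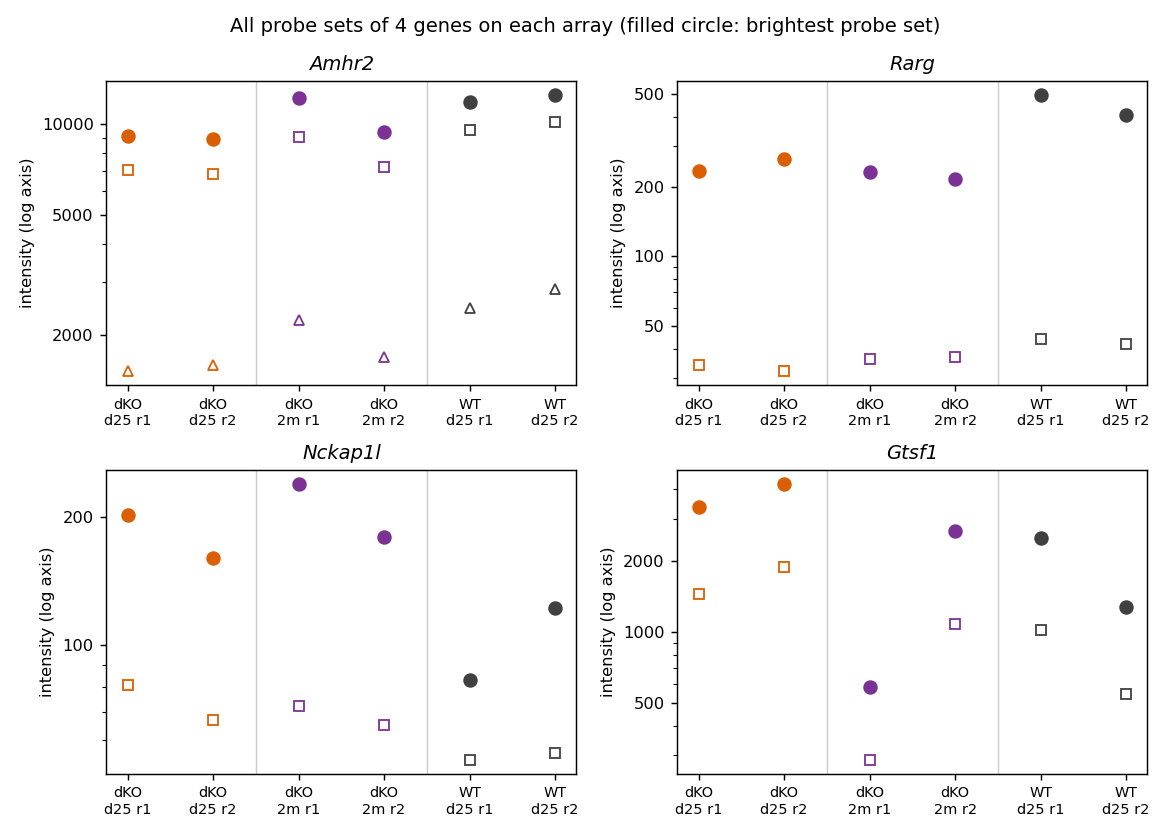
Intensity (log axis) of every probe set of Amhr2, Rarg, Nckap1l and Gtsf1 on the 6 arrays, with dKO at day 25 at the left, dKO at 2 months in the middle and wild type at the right; filled circles are the brightest probe set and open symbols the others. Both Rarg probe sets lie lower on all 4 dKO arrays than in wild type, and the brightest lies between 216 and 263 on the dKO arrays, below 497 and 405 in wild type.

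At day 25, the comparison at a matched age, 0 of the 33 members passed an adjusted p of 0.05 in limma, as did 0.0% of all genes. At an unadjusted p under 0.05, 2 members were higher in the dKO (Nckap1l and Zfp385a), where 4.88% of all genes were, and 2 were lower (Rarg and Amhr2), where 3.43% were. Both directions together made 12.1% of members and 8.31% of all genes. The median log2 difference of the members was 0.04, against 0.03 over all genes, with 19 members higher and 14 lower. Over 1.5-fold differences were found for Rarg, Krt18, Gtsf1 and Nckap1l, which is 12.1% of the members against 10.4% of all genes. Both shares lie near the background. Leaving out wild-type replicate 1 gave 0 higher and 1 lower member at that p, and leaving out wild-type replicate 2 gave 1 of each. Without either dKO array of day 25 1 member was higher, and without either dKO array of 2 months 5 were.

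Groups without overlap were frequent among the members. The 2 dKO arrays of day 25 did not overlap the 2 wild-type arrays for 25 of 33 members (75.8%), where 45.8% of all genes did not overlap. Of these members 15 were higher (26.4% of all genes were) and 10 were lower (19.5% were). Among genes with a mean log2 level of at least 6 the shares were 79.3% of 29 members and 54.0% of 12204 genes. The share was 43.9% for the other 679 genes of chromosome 15. The size of the differences did not stand out in the same way, with a median of 0.18 on the log2 scale for the members and 0.15 for all genes, or 0.18 and 0.19 above the level of 6. No test of the list was made. For a single gene, an exact two-sided permutation test on 2 and 2 arrays has 0.333 as its smallest p.

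**Figure D2:**
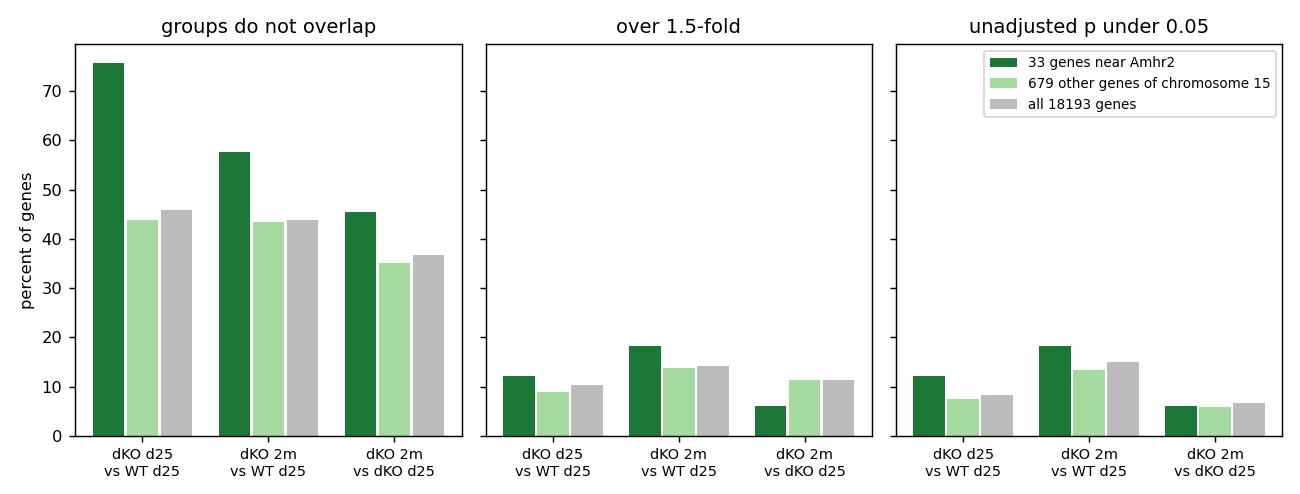
Percent of genes (vertical axis) whose groups do not overlap, that differ by over 1.5-fold, or that have an unadjusted p under 0.05 in limma, for the 33 genes near Amhr2, the other 679 genes of chromosome 15 and all 18193 genes, in the 3 comparisons. The members stand highest in the share without overlap at day 25 (75.8% against 45.8%), and the lowest against all genes is the share over 1.5-fold between the dKO ages (6.06% against 11.3%).

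Rarg, which encodes the retinoic acid receptor gamma, gave 234 and 263 in dKO at day 25, 230 and 216 in dKO at 2 months, and 497 and 405 in wild type. All 4 dKO arrays lay below both wild-type arrays. The log2 difference was -0.85 ± 0.14 (SE) at day 25, 1.81-fold lower, with adjusted p = 0.474, and -1.01 ± 0.14 at 2 months, 2.01-fold lower, with adjusted p = 0.171. Its other probe set was dim, at 34 and 32 in dKO at day 25 and 36 and 37 at 2 months, against 44 and 42 in wild type, and ran the same way (-0.37 ± 0.09 at day 25, adjusted p = 0.509). Rarg lies 8 genes from Amhr2, and the 5 members between them had log2 differences from -0.16 to 0.32 at day 25. When 1 array was left out, its log2 difference ranged from -1.0 to -0.7 at day 25 and from -1.15 to -0.86 at 2 months. Both its probe sets end in _a_at, and without probe sets of that class it has no value.

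The 4 measured members nearest to Amhr2 on the Rarg side had log2 differences from -0.12 to 0.32 at day 25. Sp1, the factor that binds GC boxes and the next gene to Amhr2, gave 1890 and 1994 in dKO at day 25, 2204 and 1863 in dKO at 2 months, and 2084 and 2029 in wild type, a log2 difference of -0.08 ± 0.12 at day 25 (adjusted p = 0.882). The dKO arrays of day 25 lay just below both wild-type arrays, and at 2 months the groups overlapped. Aaas, a nuclear pore protein, gave 792 and 802 in dKO at day 25, 432 and 756 in dKO at 2 months, and 671 and 762 in wild type. Pfdn5, a subunit of the prefoldin chaperone, gave 3340 and 3809 in dKO at day 25, 3408 and 3457 in dKO at 2 months, and 3674 and 4062 in wild type. Espl1, the separase that cuts cohesin in dividing cells, gave 1761 and 1735 in dKO at day 25, 357 and 1428 in dKO at 2 months, and 1520 and 1283 in wild type. Aaas and Espl1 thus had their lowest value on the same array, dKO at 2 months replicate 1. At day 25 their dKO arrays were above wild type by 0.16 ± 0.28 and 0.32 ± 0.65 on the log2 scale. These errors are from the fit of all 6 arrays, which includes that array. With only the 4 arrays of day 25 the differences were 0.16 ± 0.09 and 0.32 ± 0.11.

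On the other side, Prr13, next to Amhr2, gave 1080 and 1479 in dKO at day 25, 1841 and 1607 in dKO at 2 months, and 969 and 1126 in wild type. Its groups overlapped at day 25 (log2 difference 0.27 ± 0.19, adjusted p = 0.735, or 0.05 without dKO at day 25 replicate 2 and 0.50 without replicate 1) and did not at 2 months (0.72 ± 0.19, adjusted p = 0.303). Pcbp2, which binds C-rich RNA, gave 7106 and 7515 in dKO at day 25, 6930 and 6899 in dKO at 2 months, and 8160 and 8247 in wild type. All 4 dKO arrays of Pcbp2 lay below wild type, with log2 differences of -0.17 ± 0.09 at day 25 (adjusted p = 0.68) and, for the older mice, -0.25 ± 0.09 (adjusted p = 0.368). Its second probe set overlapped between the groups. Map3k12, a kinase upstream of JNK, gave 303 and 389 in dKO at day 25, 551 and 297 in dKO at 2 months, and 235 and 251 in wild type. All 4 dKO arrays were above wild type there (0.50 ± 0.32 at day 25, adjusted p = 0.717, or 0.32 without dKO at day 25 replicate 2). Tarbp2, the double-stranded RNA binding partner of Dicer, gave 789 and 736 in dKO at day 25, 571 and 718 in dKO at 2 months, and 592 and 606 in wild type. Its day 25 dKO arrays were above wild type on both probe sets (0.35 ± 0.14 on the brightest, adjusted p = 0.625), and its 2-month arrays overlapped wild type on the brightest probe set and lay above it on the other (386 and 408, against 377 and 343).

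**Figure D3:**
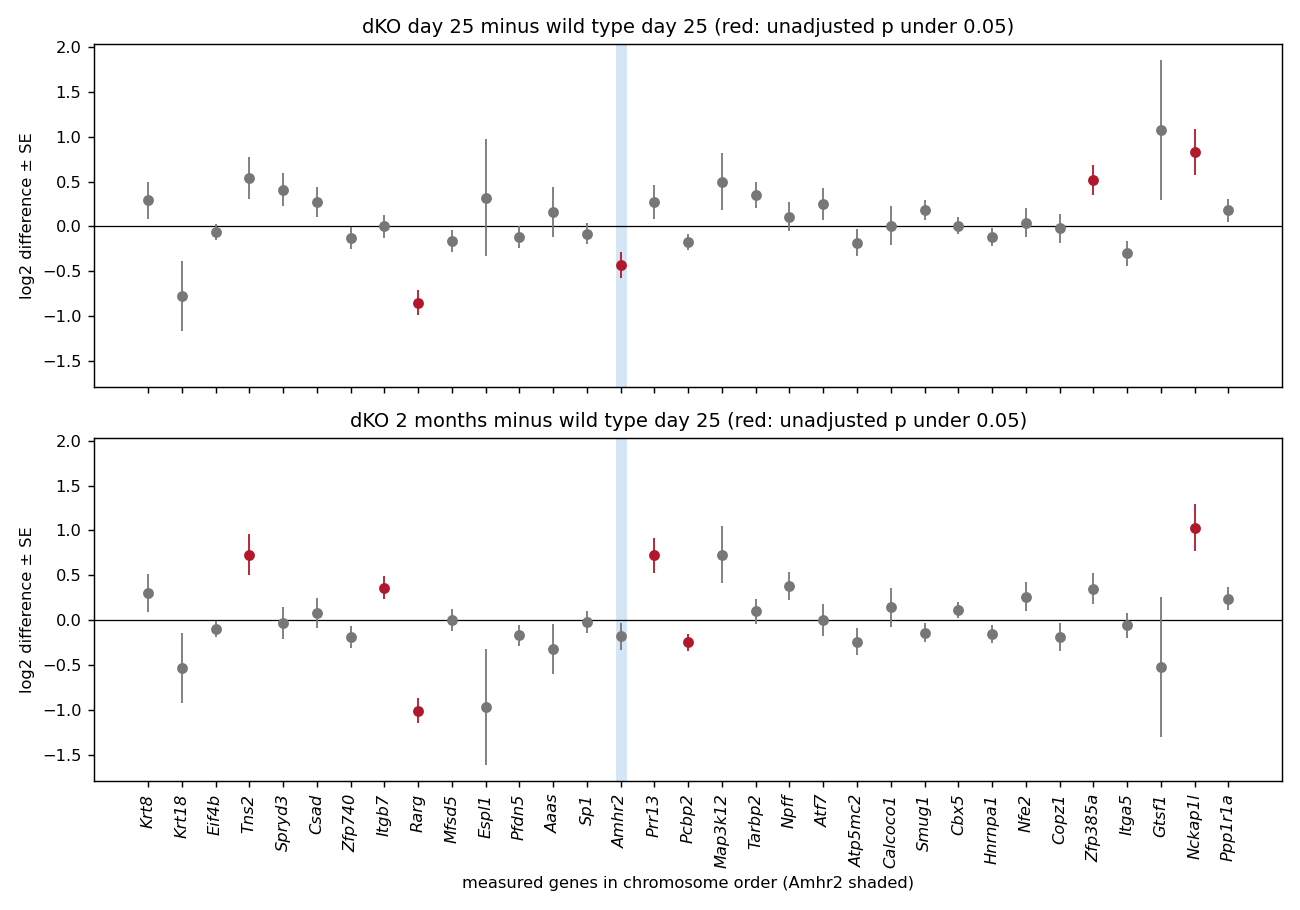
Log2 difference from wild type with its standard error (vertical axis) for the 33 measured genes in chromosome order (horizontal axis, Amhr2 shaded), for dKO at day 25 above and dKO at 2 months below; red marks an unadjusted p under 0.05. Higher and lower genes are mixed on both sides of Amhr2, and the genes marked at both ages are Rarg and Nckap1l.

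Members near Amhr2 in gene order and those farther away were set side by side. The 16 members within 10 genes of Amhr2 had a median size of 0.16 on the log2 scale at day 25, and 1 of them (6.25%) exceeded 1.5-fold. The 16 members farther away had a median of 0.28, and 3 of them (18.8%) did. Over all genes the median size was 0.15, and 10.4% exceeded 1.5-fold. The signed medians at day 25 were 0.01 within 10 genes and 0.18 beyond. For dKO at 2 months against wild type the order turned, with a median size of 0.24 within 10 genes and 0.22 beyond, and 4 members over 1.5-fold against 2. By side, the day 25 median was -0.03 over 14 members towards Krt8 and 0.14 over 18 members towards Ppp1r1a. These are descriptions of 2 arrays against 2 and were not tested.

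Among the factors for transcription and chromatin, Zfp385a, a zinc finger protein, gave 89 and 120 in dKO at day 25, 89 and 95 in dKO at 2 months, and 75 and 69 in wild type. All 4 dKO arrays were above both wild-type arrays, with a log2 difference of 0.52 ± 0.17 at day 25 (adjusted p = 0.57, or 0.30 without dKO at day 25 replicate 2), and the 2-month arrays gave 0.35 ± 0.17 (adjusted p = 0.443). Zfp740, another zinc finger protein, was lower on all 4 dKO arrays, which lay between 626 and 741, against 751 and 804 in wild type. Cbx5, the heterochromatin protein HP1 alpha, was 1312 and 1218 in dKO at day 25 and 1365 and 1348 at 2 months, against 1235 and 1281. Atf7, a bZIP factor, lay between 38 and 57 on the dKO arrays, against 46 and 42. Nfe2, a factor of the erythroid and megakaryocyte lineages, lay between 15 and 22 against 16 on both wild-type arrays, so it was close to the lowest intensities on every array. The 11 measured markers of those lineages summed to 1165 and 1147 in dKO at day 25 and 1709 and 1314 at 2 months, against 860 and 1078. At day 25, 6 of them had higher and 5 lower means, with a median log2 difference of 0.04. Alas2 had the largest difference, with 364 and 289 in dKO at day 25 and 598 and 398 at 2 months, against 129 and 127. The part of these lineages in the values was not tested.

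Of the 4 genes of RNA binding and translation, Pcbp2, Eif4b and Hnrnpa1 had lower means in dKO at day 25 and Tarbp2 had a higher one. Eif4b, an initiation factor of translation, was between 3076 and 3366 on the 4 dKO arrays, against 3372 and 3378 in wild type, a log2 difference of -0.06 ± 0.09 at day 25. Hnrnpa1, a splicing regulator, was between 3219 and 3375, against 3816 and 3520, a log2 difference of -0.12 ± 0.10. Its next probe set, at 3508 and 3334 in dKO at day 25 and 3370 and 3128 at 2 months against 3373 and 3013 in wild type, had the opposite sign (0.10 ± 0.11). Over the list, 18 members had several probe sets, and in 9 of them all probe sets had the same sign at day 25.

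Of the 7 genes of signalling and adhesion, 5 were above wild type on all 4 dKO arrays, where 13.6% of all genes were, and the group was not tested. Nckap1l, a subunit of the actin-regulating WAVE complex of blood cells, gave 202 and 160 in dKO at day 25, 239 and 179 in dKO at 2 months, and 83 and 122 in wild type. The log2 difference was 0.83 ± 0.26 at day 25 (adjusted p = 0.558), and the 2-month arrays gave 1.03 ± 0.26 (adjusted p = 0.287), and the other probe set was also above wild type on all 4 dKO arrays. Tns2, a tensin of focal adhesions, gave 151 and 199 in dKO at day 25, 235 and 166 in dKO at 2 months, and 124 and 114 in wild type (0.54 ± 0.23 at day 25, adjusted p = 0.634). Itgb7, an integrin chain of lymphocytes, gave 49 and 52 in dKO at day 25, 72 and 59 in dKO at 2 months, and 50 and 51 in wild type, so it overlapped wild type at day 25 and lay above it at 2 months. Npff, a neuropeptide precursor, lay between 78 and 113 on the dKO arrays, against 73 and 77 in wild type. Ppp1r1a, an inhibitor of protein phosphatase 1, lay between 75 and 93, against 73 and 74, and Map3k12 was the other gene of this group above wild type on all 4 dKO arrays. Between the dKO ages all 7 genes of the group had higher means at 2 months, with a median log2 difference of 0.24. Over all genes 9688 of 18193 had higher means, with a median of 0.02. The dKO groups did not overlap for 2 of the 7, where 19.7% of all genes were higher without overlap. On replicate 2 of the 2-month group, only Itgb7 and Npff exceeded both day 25 dKO arrays. Itga5, the fibronectin receptor chain, gave 60 and 49 in dKO at day 25, 69 and 60 in dKO at 2 months, and 67 on both wild-type arrays, a log2 difference of -0.30 ± 0.14 at day 25 (adjusted p = 0.656), or -0.16 without dKO at day 25 replicate 2. Of its 3 dimmer probe sets, 2 had the same sign at day 25 (-0.18 and -0.23) and 1 the opposite sign (0.13).

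Leukocyte markers differed between the same arrays. The summed intensity of 21 such markers was 10897 and 6454 in dKO at day 25 and 23007 and 7332 at 2 months, against 2498 and 4756 in wild type. Means were higher in the dKO for 20 of 21 at day 25 and 21 of 21 at 2 months; Itgam, a defining marker of myeloid cells, stayed between 12 and 16 on every array, close to the lowest intensities. Nckap1l was highest on dKO at 2 months replicate 1 and lowest on wild-type replicate 1, the arrays where this sum was highest and lowest. The 14 endothelial markers summed to 1659 and 2346 in dKO at day 25 and 4625 and 2506 at 2 months, against 1335 and 1574. The part of these cells in the values of Nckap1l, Itgb7 and Tns2 was not tested.

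Krt8 and Krt18, the keratins that pair in the filaments of simple epithelia, differed in direction. Krt8 was 1475 and 1707 in dKO at day 25 and 1315 and 1948 at 2 months, against 1269 and 1334 in wild type (0.29 ± 0.21 at day 25, adjusted p = 0.753), and its 3 probe sets ran together. Krt18, next to it in gene order, was 109 and 228 in dKO at day 25 and 227 and 157 at 2 months, against 265 and 280, all 4 dKO arrays lower (-0.78 ± 0.39 at day 25, adjusted p = 0.662). The dKO replicates of day 25 differed from each other by more than the group means did. Summed surface epithelium markers (11) were 3376 and 4368 in dKO at day 25 and 5956 and 3959 at 2 months, against 3225 and 2521, and their part was not tested.

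Gtsf1, a protein of the piRNA pathway of germ cells, varied most between the arrays among the members, over a 7.27-fold range. It gave 3358 and 4238 in dKO at day 25, 583 and 2658 in dKO at 2 months, and 2496 and 1279 in wild type. The day 25 dKO arrays were above all others, and the replicates differed widely in wild type and at 2 months (1.08 ± 0.78 at day 25, adjusted p = 0.745). The 18 oocyte markers summed to 61413 and 91008 in dKO at day 25 and 8901 and 49406 at 2 months, against 43276 and 26307 in wild type, which puts the 6 arrays in the same order as Gtsf1. The part of oocytes in this value was not tested. Smug1, a glycosylase that removes uracil from DNA, gave 613 and 704 in dKO at day 25, 510 and 543 in dKO at 2 months, and 575 and 586 in wild type, and so was above wild type at day 25 and below it at 2 months.

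The genes of metabolism and transport differed little. Atp5mc2, the c subunit of ATP synthase, gave 5594 and 4918 in dKO at day 25, 4545 and 5576 in dKO at 2 months, and 5710 and 6209 in wild type, with all 4 dKO arrays lower (-0.18 ± 0.15 at day 25, adjusted p = 0.77). Csad, a decarboxylase of taurine synthesis, was 622 and 725 in dKO at day 25 and 658 and 528 at 2 months, against 602 and 516. Copz1, a coat protein of Golgi vesicles, overlapped between groups, with 1144 to 1543 on the dKO arrays against 1354 and 1582. Mfsd5, a membrane transporter, overlapped as well, with 745 to 892 against 787 and 925. Outside this group, Calcoco1 lay between 195 and 264 against 176 and 240. Spryd3, also outside it, gave 243 and 279 in dKO at day 25, 163 and 224 in dKO at 2 months, and 195 and 196 in wild type. Its log2 difference at day 25 was 0.41 ± 0.18 (adjusted p = 0.644 in limma).

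**Figure D4:**
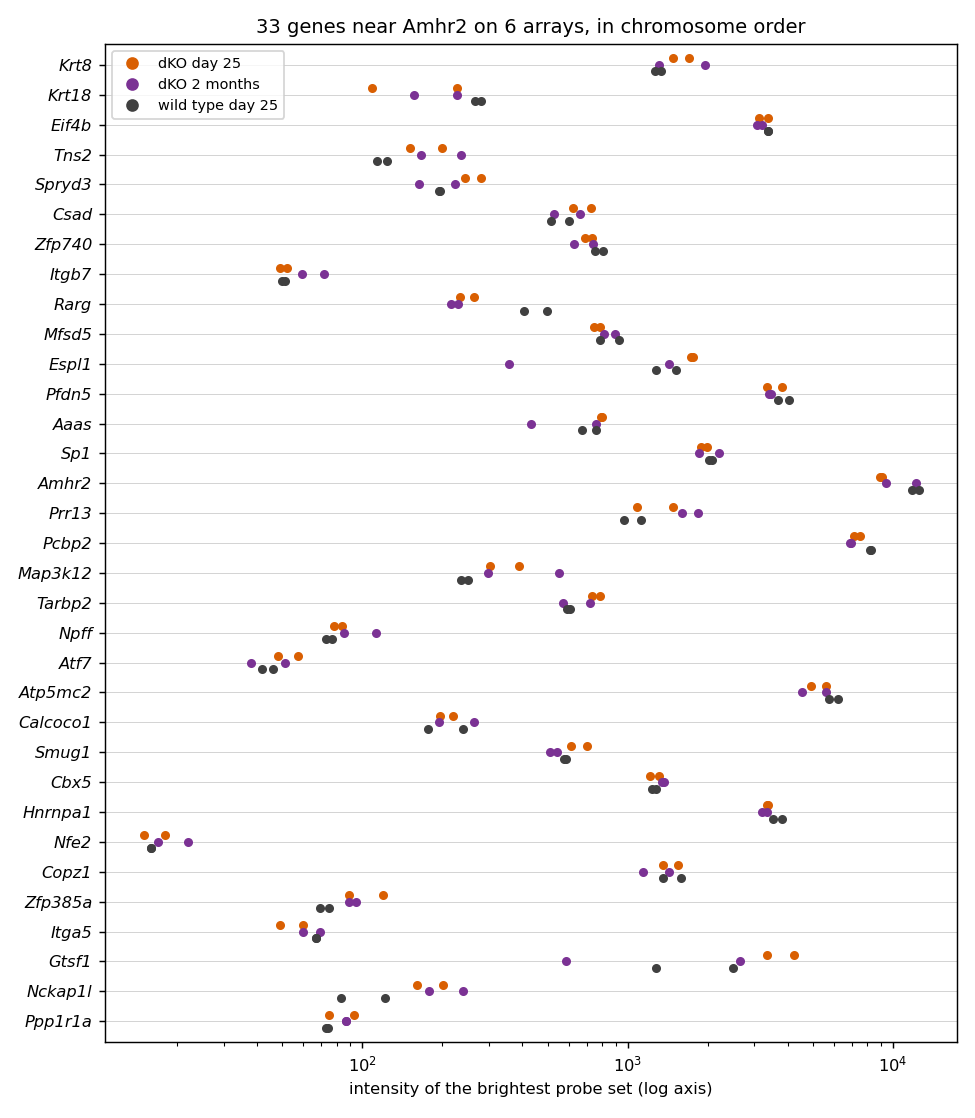
Intensity of the brightest probe set (horizontal log axis) of the 33 genes in chromosome order from Krt8 (top) to Ppp1r1a (bottom), with 1 point per array in the colours of the 3 groups; levels of different genes are not comparable. Most genes keep their points close together, while Gtsf1 and Espl1 have an array far to the left (583 and 357, dKO at 2 months replicate 1).

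For dKO at 2 months against wild type at day 25, age and genotype differ together and cannot be told apart. In limma 0 of 33 members passed an adjusted p of 0.05, as did 0.0% of all genes. At an unadjusted p under 0.05, 4 members were higher (Nckap1l, Prr13, Tns2 and Itgb7), where 9.53% of all genes were, and 2 were lower (Rarg and Pcbp2), where 5.36% were. Together these are 18.2% of members, against 14.9% of all genes. The groups did not overlap for 57.6% of members and 43.8% of all genes, with 10 members higher (26.5% of all genes were) and 9 lower (17.3% were), and 18.2% of members exceeded 1.5-fold, against 14.1% of all genes. The counts of higher and lower members were 0 and 1 when wild-type replicate 1 was left out and 2 and 1 for wild-type replicate 2. They were 1 and 3 when dKO at 2 months replicate 1 was left out and 7 and 4 for replicate 2. Over the members, the median log2 difference was -0.02, against 0.04 for all genes.

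The Cre allele is shared by all 4 dKO arrays, so the members were also compared over both ages at once. All 4 dKO arrays lay beyond both wild-type arrays for 13 of 33 members (39.4%), where 24.4% of all genes did. The 6 higher were Tns2, Map3k12, Npff, Zfp385a, Nckap1l and Ppp1r1a, and the 7 lower were Krt18, Eif4b, Zfp740, Rarg, Pcbp2, Atp5mc2 and Hnrnpa1. Amhr2 was not among them on its brightest probe set, while on its other probe sets all 4 dKO arrays lay below wild type. Both ages are set against the same 2 wild-type arrays, so a wild-type value that is high or low enters both. The share was 35.0% for the 40 measured genes nearest to Foxo1 and also 35.0% for those nearest to Foxo3, the genes targeted in this knockout. It was 23.3% for the other genes of chromosome 15.

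Between the dKO ages, both groups carry the Cre allele, and a constant effect of it would not appear. In limma 0 of 33 members passed an adjusted p of 0.05, as did 0.0% of all genes. At an unadjusted p under 0.05 Itgb7 was higher at 2 months (3.73% of all genes were) and Smug1 was lower (2.9% were). Together these 2 made 6.06% of members, against 6.63% of all genes. Smug1 had a log2 difference of -0.32 ± 0.11, Itgb7 of 0.36 ± 0.13, Prr13 of 0.44 ± 0.19, Spryd3 of -0.44 ± 0.18 and Itga5 of 0.24 ± 0.14, each with adjusted p of 0.712 or 0.714. With 1 array left out, Prr13 ranged from 0.22 (without dKO at day 25 replicate 1) to 0.67, Spryd3 from -0.67 to -0.22 (without dKO at 2 months replicate 1), Itga5 from 0.10 (without dKO at day 25 replicate 2) to 0.39, and Itgb7 from 0.22 (without dKO at 2 months replicate 1) to 0.50. Smug1 ranged from -0.42 to -0.22. Amhr2 was 0.25 ± 0.15 higher at 2 months (adjusted p = 0.717), or 0.06 without dKO at 2 months replicate 1 and 0.43 without replicate 2. Gtsf1 had a log2 difference of -1.60 ± 0.78 and Espl1 one of -1.29 ± 0.65, and these were the members over 1.5-fold, 6.06% against 11.3% of all genes. Without replicate 1 of the 2-month group the Gtsf1 difference was -0.50. The groups did not overlap for 45.5% of members and 36.7% of all genes, with 6 members higher (19.7% of all genes were) and 9 lower (17.0% were). Leaving out replicate 2 of the 2-month group gave 4 higher and 5 lower members past the unadjusted p. Leaving out replicate 1 of that group, or either wild-type array, gave 0 in both directions. Leaving out dKO at day 25 replicate 1 gave 0 higher and 2 lower, and leaving out its replicate 2 gave 1 and 0.

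Other genes of the AMH and BMP pathway were followed as a list of 23, of which 22 were measured. At day 25, 7 had higher and 15 lower means in the dKO, and 1 was lower at an unadjusted p under 0.05, which is 4.55% of the list against 8.31% of all genes. That gene was Id3, an inhibitor of helix-loop-helix factors and a target of BMP signals, at 1892 and 2356 in dKO at day 25 and 3452 and 3707 at 2 months, against 3809 and 2870 in wild type (-0.65 ± 0.19 at day 25, adjusted p = 0.555). Id1 was 241 and 494 in dKO at day 25 and 1196 and 862 at 2 months, against 738 and 448, and Id2 was 835 and 1190, 3957 and 1865, against 1410 and 2006. The 3 genes were thus higher at 2 months than at day 25 in the dKO, by 0.76 ± 0.19 for Id3, 1.55 ± 0.44 for Id1 and 1.45 ± 0.43 for Id2, each with adjusted p = 0.712. Smad6, an inhibitor of BMP signals, was 259 and 181 in dKO at day 25 and 494 and 210 at 2 months, against 480 and 446 (-1.09 ± 0.44 at day 25, adjusted p = 0.624), and Smad7, another inhibitor, was 577 and 403, 493 and 600, against 742 and 592. The ligand gene Amh overlapped between groups, with 3061 and 2096 in dKO at day 25 and 1819 and 4016 at 2 months, against 2921 and 2071 in wild type. Among the type I receptors, Acvr1 was 950 and 908 in dKO at day 25 and 1357 and 965 at 2 months, against 790 and 724 (0.60 ± 0.19 at 2 months, adjusted p = 0.337). Bambi, a decoy receptor, was 997 and 797 in dKO at day 25 and 1969 and 1130 at 2 months, against 313 and 743 (1.63 ± 0.49 at 2 months, adjusted p = 0.331). Smad5, which carries the signal to the nucleus, was 658 and 740 in dKO at day 25 and 747 and 599 at 2 months, against 853 and 823, so all 4 dKO arrays were lower. Smurf2, a ubiquitin ligase of SMADs, was 1232 and 1499 in dKO at day 25 and 1013 and 1022 at 2 months, against 1196 and 1211. Between the dKO ages 3 genes of the list (the ID genes above) were higher and 1 (Smurf2) was lower at an unadjusted p under 0.05, which is 18.2% of the list against 6.63% of all genes. For dKO at 2 months against wild type, Bambi and Acvr1 were higher at that p, which is 9.09% against 14.9%. Of the 22 genes 0 passed an adjusted p of 0.05 in limma in any comparison.

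The Hoxc cluster lies inside the same stretch, 9 to 17 genes from Amhr2 on the Ppp1r1a side. Means of all 7 measured Hoxc genes were above wild type in dKO at day 25, where 10129 of all 18193 genes were. Their median log2 difference was 0.66. At an unadjusted p under 0.05, 4 of them were higher, where 4.88% of all genes were, with 0 past an adjusted p of 0.05 in limma. Hoxc10 was 226 and 41 in dKO at day 25, against 43 and 36 in wild type, so its mean rested on 1 array. Hoxc13 lay between 18 and 24 on every array. Hoxc8, chosen here after its values were seen, was 516 and 306 in dKO at day 25 and 591 and 415 at 2 months, against 145 and 152 in wild type (1.41 ± 0.31 at day 25, adjusted p = 0.48). Of the 5 other measured genes in the stretch, 4 had means above wild type in dKO at day 25, and Gpr84 was 40 and 41 in dKO at day 25 and 31 and 33 at 2 months, against 30 and 35. Igfbp6, a binding protein of IGF2, was 429 and 567 in dKO at day 25 and 914 and 644 at 2 months, against 432 and 325, and Pde1b, a phosphodiesterase, was 266 and 226, 101 and 229, against 148 and 126.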

How the data were processed

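The deposited values are probe set intensity on a linear scale in whole numbers, made by the authors; per the submitters' processing notes they used RMA in affy. Versions and genome build are not given in the sources used here. RMA makes the distributions of the arrays alike (upper quartiles here from 370 to 383), which would hide a shift shared by most genes. Values were used as log2(value + 1), the scale of every difference given, so folds of dim genes are understated. Of 45101 probe sets, 64 controls were left out. A mean per group was fitted to all 6 arrays with limma 3.58.1 in R 4.3.3 (3 residual degrees of freedom, two-sided), with Benjamini-Hochberg adjustment over 45037 probe sets and a threshold of 0.05; the fit was tested on simulated data. Each gene is its probe set of highest mean; RefSeq (GRCm38.p6) gave gene order, matching 18032 of 18193 genes. The members and lists were chosen with earlier results of these data known.

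All members are named. Values on every array are given for Amhr2, the 4 measured members nearest on each side and, per comparison, up to 6 members per direction with p under 0.05, or the 3 of smallest p where fewer than 3 pass, and of the pathway list for up to 4 genes of smallest p per comparison, plus Amh; some other members are also given in full. The number of arrays limits the precision. Alternatives were a pseudocount of 16, repeated quantile normalization, median centring, a dim filter, a robust fit with an intensity trend and fits of only 4 arrays. Further ones were the mean of a gene's probe sets, array weights, a replicate block and leaving out each array. Another left out all probe sets ending in _x_at, _s_at or _a_at, called suffixed here. Oocyte, leukocyte, endothelial, erythroid and megakaryocyte, surface epithelium, stromal, theca and granulosa markers were summed per array.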

Additional observations from a re-analysis of the deposited data

How the results depend on the processing

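With 2 arrays a group, 0 members passed an adjusted p of 0.05 under any alternative run, and 0 probe sets of the whole table did, so the alternatives moved only sizes and counts at an unadjusted p under 0.05. Differences of dim genes are limited by signal over background, and 5 members stayed under 100 on every array. Leaving out suffixed probe sets left 28 members with a value, and Rarg was not among them. At day 25 the members higher numbered 5 with array weights or with only the 4 arrays compared and 1 with the replicate block. The members lower numbered 1 without suffixed probe sets, without dim ones, with repeated quantile normalization and with the block. The median difference was 0.11 without dim probe sets. With 1 array left out these ranged from 0 to 5, from 1 to 2 and from 0.04 to 0.15. For 2 months against wild type the members lower numbered 1 with array weights, median centring, no dim probe sets or the mean of all probe sets. With the block or the crossed block they also numbered 1. They numbered 0 without suffixed probe sets, where Rarg had no value. The median was 0.05 with the mean of all probe sets and without suffixed ones. With 1 array left out, members higher ranged from 0 to 7, lower from 1 to 4, the median from -0.06 to 0.06 and Amhr2 from -0.36 to 0.01. Between the dKO ages the members lower numbered 0 with array weights, median centring, no dim probe sets, the intensity trend, 4 arrays or repeated quantile normalization, 2 with the block and 3 with the crossed block. The members higher numbered 0 without dim probe sets, with the intensity trend, with 4 arrays and with either block. The median was 0.08 without suffixed probe sets and 0.05 with the mean of all probe sets. With 1 array left out these ranged from 0 to 5, from 0 to 4 and from -0.09 to 0.03. Itga5 at day 25 was 0.13 without suffixed probe sets, and Amhr2 was -0.76. For the counts and medians that moved, the cause was not tested. Apart from Amhr2, 389 values of single named members kept their direction, and 1, that of Itga5, reversed. The side of the threshold could not change, as 0 probe sets passed it in any run. Array weights, the intensity trend and leaving out an array outside the comparison leave a log2 difference as it is. The 389 values are thus not separate checks. Amhr2 at 2 months against wild type also reversed, to 0.01 without dKO at 2 months replicate 2.

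Replicate numbers did not pair the arrays: deviations of same-numbered arrays from their group means correlated at -0.159 between dKO at day 25 and wild type, -0.208 between dKO at 2 months and wild type, and 0.057 between the dKO groups. With the replicate block the Amhr2 difference at day 25 was -0.43 (adjusted p = 0.696). A crossed block, with the wild-type numbers swapped, was added after seeing these correlations, and also gave 0 members past the threshold. Fits without 1 array take the spread of a group left with 1 array from the remaining groups.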

Other observations

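The stretches around the deleted genes were summarised in the same way. Of the 40 measured genes nearest to Foxo1 in gene order, 7 differed by over 1.5-fold at day 25 (17.5%), and the groups did not overlap for 9 higher and 11 lower genes. Of the 40 nearest to Foxo3, 5 differed by over 1.5-fold (12.5%), and the groups did not overlap for 14 higher and 10 lower genes. Over all genes 10.4% differed by over 1.5-fold, and 26.4% were higher and 19.5% lower without overlap. The median log2 differences were -0.04 and 0.12, with 0 genes past an adjusted p of 0.05 in limma. At an unadjusted p under 0.05, 3 genes were higher and 5 lower around Foxo1, and 0 were higher and 2 lower around Foxo3. Over all genes 4.88% were higher and 3.43% lower.

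Stromal and smooth muscle markers (16) summed to 34342 and 41725 in dKO at day 25 and 55415 and 31310 at 2 months, against 29496 and 23368 in wild type. Theca and interstitial markers (7) summed to 10910 and 20486 in dKO at day 25 and 35687 and 36358 at 2 months, against 9612 and 10572. Against wild type, 5 had higher and 2 lower means at day 25, and 6 had higher and 1 lower means at 2 months. Between the dKO ages 4 were higher at 2 months (Cyp17a1, Cyp11a1, Star and Aldh1a1) and 3 were lower (Ptch1, Gli1 and Hhip).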
